A study of Danio rerio with 8 samples.

Results

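The enzymes of glycolysis were followed in zebrafish larvae through 10 genes: gapdh, gapdhs, aldoaa, aldocb, pgk1, pgam1a, eno1a, pkma, tpi1b and ldha. Every array probe whose transcript accession belongs to one of them was taken, which gave 36 probes of the 43603 on the array and 2 to 6 probes per gene. All 36 were well above background on all 8 arrays, so none was lost to the filter on dim probes. The study measured total RNA of whole larvae at 4 days post fertilization on 1-colour arrays, in 4 control samples and 4 samples of LIS1 morphants. Each sample pooled 10 larvae, and all were of WIK background. The controls, which the labels call WT, are not said to have been injected or left uninjected. The morphants carried a transient knockdown of LIS1, a regulator of the dynein motor that migrating neurons need, and only larvae with a slight phenotype and with seizure behaviour were pooled. Eggs for the 2 groups were drawn from common pools. The knockdown acts in every tissue that the morpholino reaches, and a whole-larva pool mixes all tissues. In such bulk RNA, fewer cells of a type and less RNA per cell cannot be told apart.

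Glycolysis turns glucose into pyruvate and yields ATP without oxygen. Aldolase splits the phosphorylated sugar, triosephosphate isomerase interconverts the fragments, and glyceraldehyde-3-phosphate dehydrogenase, phosphoglycerate kinase, phosphoglycerate mutase, enolase and pyruvate kinase carry the carbon to pyruvate, which lactate dehydrogenase can reduce to lactate. Several steps have separate genes for different tissues: in mammals, aldolase C is the brain form and aldolase A the muscle form, and PGAM2 and ENO3 are the muscle forms of their enzymes. Skeletal muscle and brain both depend heavily on this pathway.

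Levels below are log2 processed signals relative to the array's own 75th percentile. Changes are morphant minus control on that scale. A probe is said to have risen or fallen where limma's adjusted p, with Benjamini-Hochberg adjustment over all 36703 probes fitted, was under 0.05. Of the 36 probes, 5 rose and 6 fell. Across all probes fitted, 38.5% passed the same test, 17.4% upward and 21.0% downward. The 30.6% of the enzyme probes that passed was thus no higher than the share of the whole array. The groups did not overlap on 11 of the 36 probes, against 37.8% of all fitted probes. The median change over the 36 probes was 0.19, beside -0.03 over all probes, and 26 of the 36 changes lay above 0. Changes ran from -0.73 for a gapdh probe to 1.11 for a pkma probe, and replicate SDs from 0.05 to 0.72.

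Aldolase C (aldocb) fell on 4 of its 5 probes, gapdh on 1 of 4 and aldoaa on 1 of 3. Lactate dehydrogenase A (ldha) rose on both of its probes, pkma on 2 of 6 and pgk1 on 1 of 2. No probe of gapdhs, pgam1a, eno1a or tpi1b passed. Only ldha had every probe called, 5 of the 10 genes had called and uncalled probes side by side, and none had probes called in opposite directions. Among the 8656 genes with at least 2 fitted probes, 41.7% had called beside uncalled probes and 3.50% had opposite calls. How the 6 falls held depended on the scaling. With quantile normalization 6 probes rose and 5 fell, where 38.5% of all probes passed, 19.6% upward and 18.9% downward. With scaling to the array median 6 rose and 5 fell, where 38.8% of all probes passed, 20.5% upward and 18.3% downward. Of the 6 falls, only that of aldoaa was lost in these 2 settings. With the arrays scaled to their spike-in controls instead, every one of the 6 changes was above 0, between 0.0026 and 0.37. So were the other 4 changes that had been below 0, while the median of all probes moved to 0.70. Under that scaling 27 of the 36 probes rose and 0 fell by limma (0 at an unadjusted p under 0.05 too), where 60.3% of all probes passed, 56.0% upward and 4.33% downward. With the slide as a block 6 rose and 6 fell, where 44.1% of all probes passed, 19.9% upward and 24.2% downward. With normexp background correction in place of Feature Extraction's own, 0 rose (6 at an unadjusted p under 0.05) and 5 fell, where 10.8% of all probes passed, 5.89% upward and 4.87% downward. With the values the authors deposited, 8 rose and 5 fell, where 38.0% of all probes passed, 19.5% upward and 18.5% downward.

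**Figure D1:**
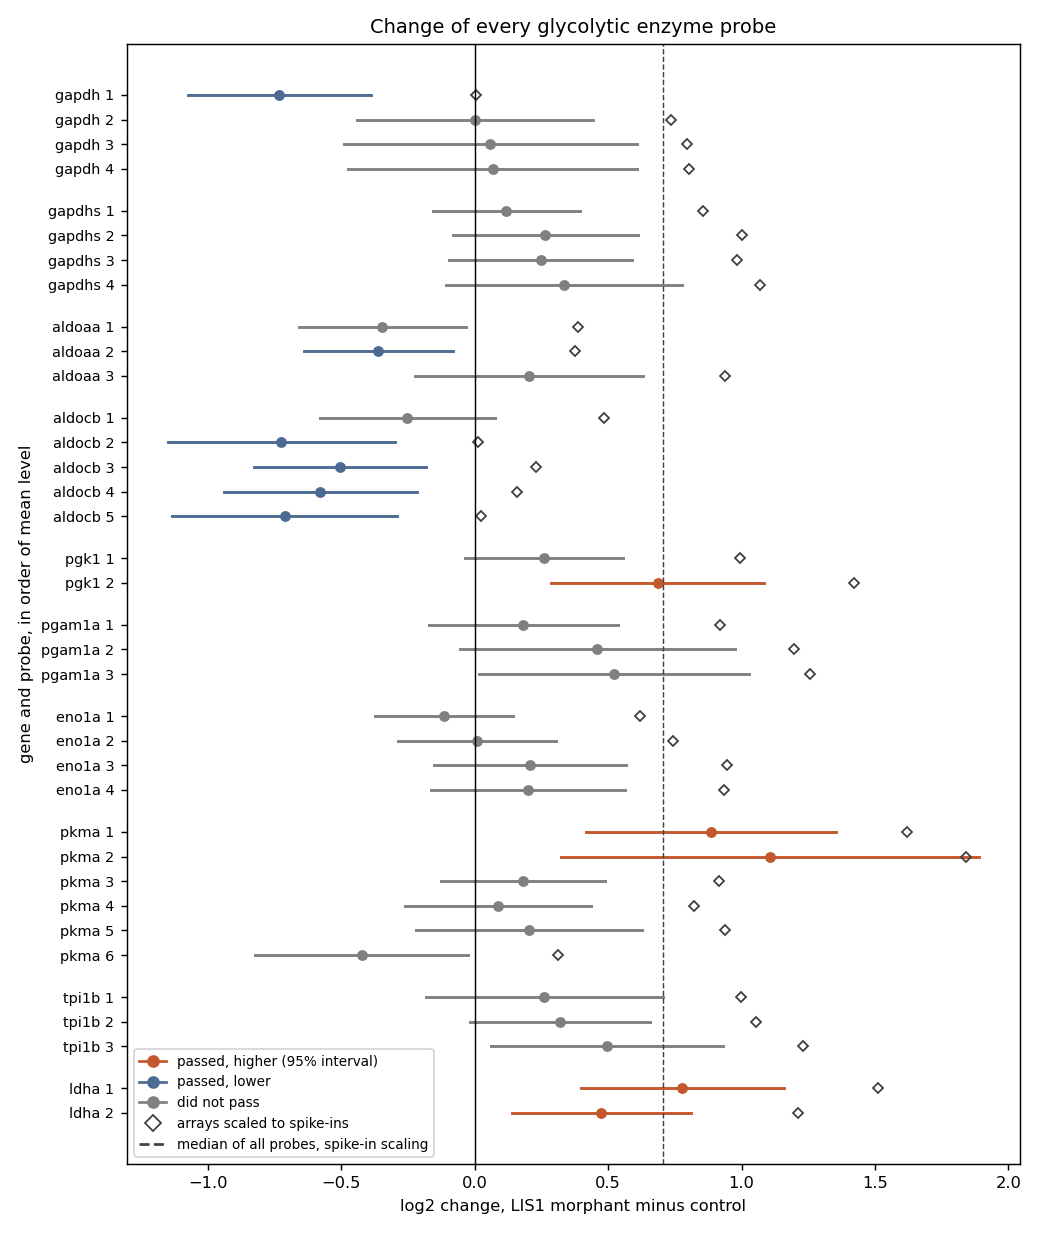
Log2 change (LIS1 morphant minus control) of all 36 probes of the 10 genes, with bars for the 95% interval and the probes of each gene in order of mean level. Red probes rose, blue probes fell, grey probes did not pass, and open diamonds give the same probes with the arrays scaled to spike-in controls, where the dashed line at 0.70 is the median of all probes. The blue points are mostly those of aldocb, and each of them moves to 0 or above as a diamond.

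Some facts of the arrays bear on these values. The signal at the 75th percentile, to which levels are relative, was 1237 ± 178 in controls and 1598 ± 154 in morphants, and the median spike-in signal was 2503 ± 287 and 1960 ± 173 (SD, n = 4 each, two-sided exact permutation p = 0.0571 for both measures). Between 83.8% and 88.8% of spots were well above background, and no spot was saturated. The mRNA of the targeted gene gave no check of the labels by a loss: of the 2 probes of pafah1b1a one rose (0.65, limma adjusted p = 0.0305) and the other did not pass, and none of the 4 probes of pafah1b1b passed (changes from -0.03 to 0.07). The labels do not give the paralog or the mode of block, and a morpholino need not lower the mRNA it binds. Control 1 stood apart on many enzyme probes, as given below. Without it, 12 of the 36 probes rose and 5 fell, while 40.1% of all probes passed, 18.9% upward and 21.2% downward.

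**Figure D2:**
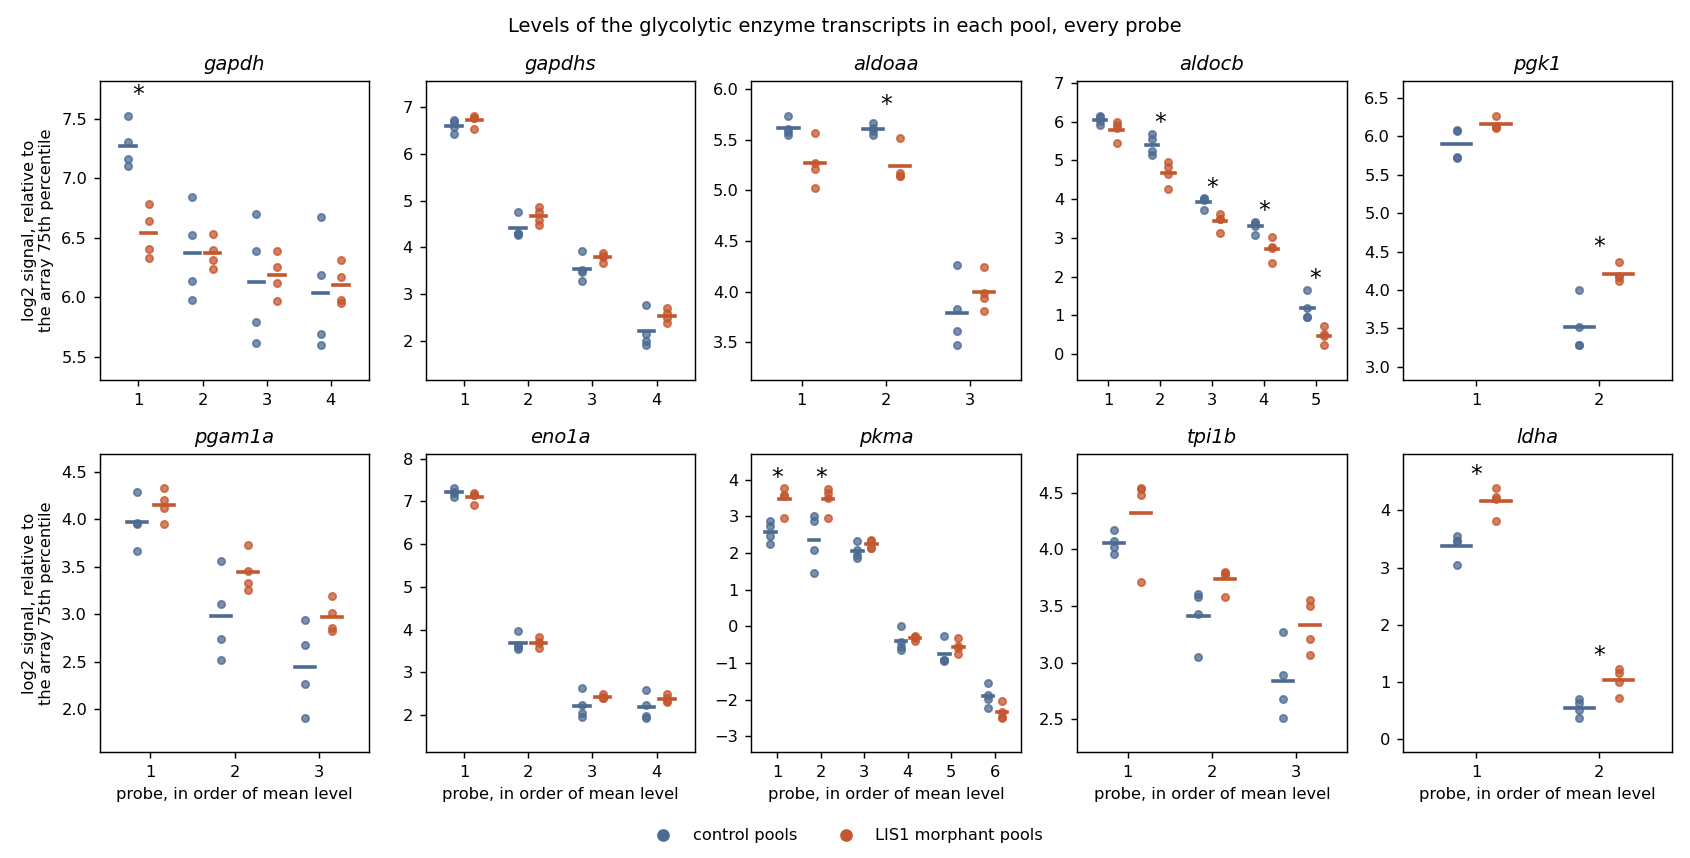
Log2 level relative to the array's 75th percentile in each of the 4 control and 4 LIS1 morphant samples, for every probe of the 10 genes, with horizontal bars for group means and asterisks for the probes that passed. The 2 groups lie apart on 4 probes of aldocb and on both probes of ldha, whereas they overlap on every probe of gapdhs, pgam1a, eno1a and tpi1b.

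Aldolase, the enzyme that splits fructose-1,6-bisphosphate, held most of the falls. The aldocb probe A_15_P171261 read 5.25, 5.54, 5.14 and 5.68 in controls 1 to 4 and 4.95, 4.66, 4.84 and 4.26 in morphants 1 to 4. All 4 morphant pools lay below all 4 controls, with morphant 4 the lowest. The mean fell from 5.40 ± 0.25 to 4.68 ± 0.30 (SD, n = 4 each), a change of -0.73 with a standard error of 0.19, or 1.65-fold lower (limma adjusted p = 0.0157).

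The next probe of the gene, A_15_P728291, read 4.02, 3.97, 3.73 and 3.99 in controls and 3.48, 3.49, 3.60 and 3.11 in morphants, again without overlap. It fell by 0.51 (SE 0.14, 1.42-fold, limma adjusted p = 0.0219). A_15_P485790 read 3.42, 3.30, 3.08 and 3.37 in controls and 3.01, 2.75, 2.73 and 2.36 in morphants. It fell by 0.58 (SE 0.16, 1.49-fold, limma adjusted p = 0.0205), and its groups did not overlap either.

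The dimmest aldocb probe, A_15_P100837, read 1.65, 1.18, 0.97 and 0.96 in controls and 0.72, 0.51, 0.46 and 0.22 in morphants. Control 1 was the highest of its group and every morphant lay below every control. It fell by 0.71 (SE 0.19, 1.64-fold, limma adjusted p = 0.0161). On all 4 of these probes the morphant array was below the control array on each of the 4 slides. Without control 2, A_15_P728291 and A_15_P485790 no longer passed (adjusted p = 0.0586 and 0.0516).

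The brightest aldocb probe, A_15_P738701, did not share the size of this difference. It read 6.02, 6.15, 5.91 and 6.10 in controls and 5.91, 5.83, 5.98 and 5.45 in morphants, so that the groups overlapped. Its change was -0.25 (95% interval -0.58 to 0.07, limma adjusted p = 0.193). A reading of aldocb by its brightest probe alone would thus record no call.

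aldoaa encodes an aldolase A, the type that predominates in mammalian muscle. Its probe A_15_P214516 read 5.55, 5.59, 5.62 and 5.66 in controls, the tightest group among all 36 probes, and 5.14, 5.14, 5.51 and 5.17 in morphants. Morphant 3 lay nearest to the controls, but no pool crossed. The probe fell by 0.36 (SE 0.12, 1.29-fold, limma adjusted p = 0.0457). This call kept its side of the threshold in 4 of the 17 other settings tried, and the highest adjusted p among them was 0.154.

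The brightest aldoaa probe, A_15_P745411, had a change of -0.35 that did not pass (limma adjusted p = 0.0760). Its controls read 5.60, 5.57, 5.54 and 5.74 and its morphants 5.27, 5.03, 5.56 and 5.21, of which morphant 3 lay within the control range. The dimmest, A_15_P117231, had a change of 0.20 (95% interval -0.23 to 0.63, limma adjusted p = 0.423).

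Whether the brain and muscle forms of aldolase parted was tested on each array as the difference of 2 log2 levels. A scaling factor common to all probes of an array cancels in it, while quantile normalization does not. By their brightest probes, aldocb minus aldoaa averaged 0.43 ± 0.10 on the control arrays and 0.53 ± 0.25 on the morphant arrays (SD, n = 4 each). The difference was 0.09 (95% interval -0.24 to 0.42, two-sided exact permutation p = 0.514). It depended on the probes chosen: over the 15 combinations of a probe of each gene it ran from -0.93 to 0.11 with a median of -0.36, and 2 were above 0. Against aldoab, the other aldolase A gene, whose brightest probe changed by -0.16 (limma adjusted p = 0.362), aldocb differed by -0.09 (95% interval -0.41 to 0.23, exact p = 0.543). Here none of the 10 combinations was above 0, and the lowest was -0.66.

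The tissue markers that could move with aldolase were read on the same arrays. The summed level of 9 photoreceptor genes, in multiples of the 75th percentile signal, was 453 to 621 in controls and 216 to 406 in morphants. These ranges did not overlap (exact p = 0.0286, 0.229 after Benjamini-Hochberg adjustment over 8 marker lists). As 0.0286 is the smallest p that 4 against 4 allows, a list alone at it could not pass this adjustment. Of the 9 genes, 3 fell and none rose by limma (6 and 0 at an unadjusted p under 0.05), with a median change of -0.60, where 21.7% of all genes fell by their brightest probes. With the slide as a block 8 of the 9 fell, where 24.2% of all probes did. With spike-in scaling the changes of these 9 genes ran from -0.16 to 0.51, where the median of all probes was 0.70.

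Neuronal markers summed to 87.0 to 92.2 in controls and 82.4 to 93.8 in morphants (exact p = 0.657), and glial markers to 136 to 166 and 129 to 144 (exact p = 0.0857). These sums weigh bright genes most, tubb5 (control mean 5.37) among the neuronal and fabp7a (6.54) among the glial genes. By their brightest probes, 1 of the 11 neuronal genes rose and 0 fell by limma (2 and 0 at an unadjusted p under 0.05). Of the 6 glial genes well above background on all 8 arrays, 0 rose and 1 fell by brightest probes. After normexp background correction none of these genes passed by its brightest probe. Among dimmer neuronal probes, 1 each of elavl4, snap25a and snap25b fell, and 1 each of stmn2a and neflb rose. Among dimmer glial probes, 1 of the 3 probes of slc1a2b and 3 of the 7 of plp1a fell. By their brightest probes, limma called 0 of the 16 fast muscle markers (1 higher and 2 lower at an unadjusted p under 0.05). After normexp background correction it called 0 as well. Among dimmer probes, 3 of the 6 probes of myhz1.1 and 1 of the 3 of tnni2a.4 fell, and neither gene had a probe that rose. The fast muscle markers summed to 1929 to 2485 in controls and 1707 to 2235 in morphants (exact p = 0.143). Slow muscle markers summed to 377 to 434 and 342 to 388 (exact p = 0.0571), and 1 of 6 fell by its brightest probe. Of the 4 probes of smyhc2, 2 dimmer ones rose. Across all genes by their brightest probes, 38.0% passed, 16.3% upward and 21.7% downward. All markers of these lists were well above background on all 8 arrays, except 1 of the 7 glial genes. The part of these tissues in the aldolase values was not tested.

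Triosephosphate isomerase interconverts the products of aldolase. None of the 3 probes of tpi1b passed, with changes of 0.26, 0.32 and 0.49 (limma adjusted p = 0.319, 0.120 and 0.0703). The brightest, A_15_P193701, read 3.96, 4.02, 4.17 and 4.08 in controls and 4.54, 4.53, 4.48 and 3.71 in morphants. Morphants 1 to 3 lay above every control and morphant 4 below every control, and without morphant 4 the probe passed (adjusted p = 0.0199).

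The tpi1b probe A_15_P749076 passed with the slide as a block (adjusted p = 0.0298) and without control 1 (adjusted p = 0.0198). It also passed with scaling to the array median (limma adjusted p = 0.0471) and in the deposited value table (0.0298). With quantile normalization it did not pass (limma adjusted p = 0.0520). The paralog tpi1a was measured by a single probe. It read 0.15, 0.28, 0.33 and -0.01 in controls and 1.22, 1.18, 1.42 and 0.63 in morphants, without overlap, and rose by 0.93 (SE 0.18, 1.90-fold, limma adjusted p = 0.00469).

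Glyceraldehyde-3-phosphate dehydrogenase makes the first high-energy intermediate, and gapdh is widely used as a reference gene. Its brightest probe, A_15_P114515, read 7.53, 7.31, 7.17 and 7.10 in controls and 6.64, 6.33, 6.78 and 6.41 in morphants. Every morphant pool lay below every control. The mean fell from 7.27 ± 0.19 to 6.54 ± 0.21 (SD, n = 4 each), a change of -0.73 with a standard error of 0.15, or 1.66-fold lower (limma adjusted p = 0.00579). The call was kept in 17 of the 18 other settings, and lost with spike-in scaling, where the change was 0.0026.

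The other 3 gapdh probes did not share this fall. A_15_P755781 read 6.85, 6.14, 6.52 and 5.98 in controls and 6.32, 6.53, 6.24 and 6.40 in morphants, with a change of 0.00 (95% interval -0.44 to 0.44, limma adjusted p = 0.999). A_15_P120646 and A_15_P754981 changed by 0.06 and 0.07 (limma adjusted p = 0.868 and 0.846). Control SDs of these 3 probes were 0.39, 0.51 and 0.50, with control 1 the highest each time, and their intervals each hold changes of 0.4 in both directions.

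This split was compared directly, after the values had been seen. The level of A_15_P114515 minus the mean of the other 3 gapdh probes was 0.79, 1.52, 0.80 and 1.28 in controls and 0.55, -0.08, 0.68 and 0.13 in morphants. The groups did not overlap, and the difference was -0.77 (two-sided exact permutation p = 0.0286, 0.095 after adjustment over the 10 genes). For pgk1 (-0.43) and aldocb (0.38) the groups were also apart, at the same p values. Control 1 had the lowest such difference of the 4 controls for all 10 genes, with a median over the genes of 1.86 against 2.45 to 2.53 in the other controls and 2.25 to 2.53 in morphants. Over 8638 genes, the same median was also lowest among controls in control 1, at 1.92 against 1.97 to 2.04, and 1.84 to 1.93 in morphants. What sets control 1 apart was not tested.

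**Figure D3:**
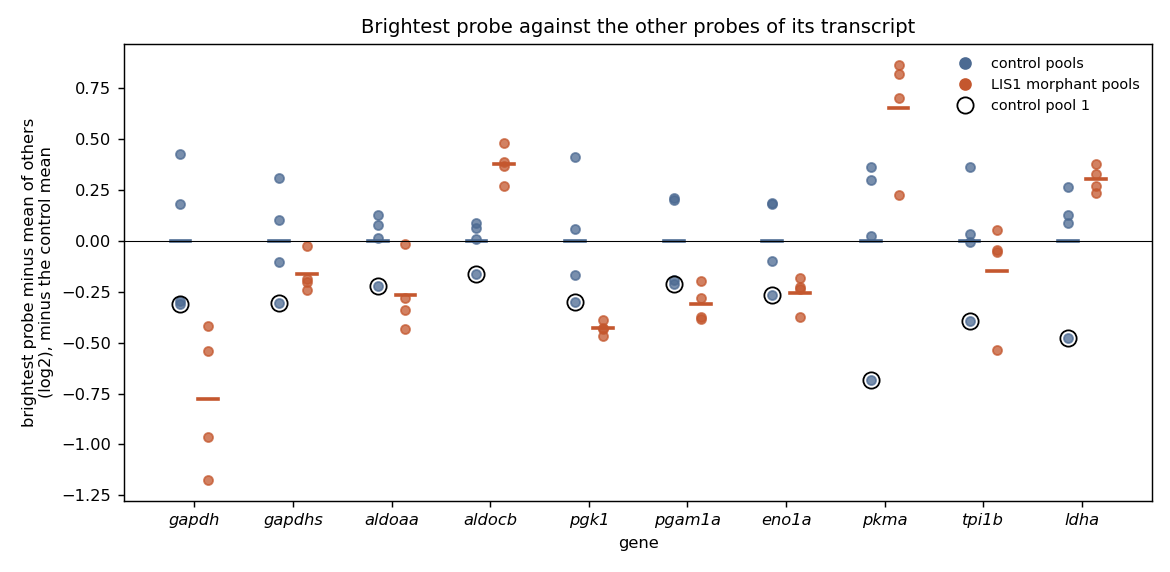
Level of the brightest probe minus the mean level of the gene's other probes, on each control and LIS1 morphant array, for the 10 genes, drawn with the control mean of each gene set to 0, with horizontal bars for group means. The morphants lie below all controls for gapdh and pgk1 and above them for aldocb, and control 1, ringed, is the lowest control for each of the 10 genes.

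gapdhs encodes a second glyceraldehyde-3-phosphate dehydrogenase, named after the form found in mammalian sperm. None of its 4 probes passed: the changes were 0.12, 0.26, 0.25 and 0.33 (limma adjusted p from 0.200 to 0.470). The brightest, A_15_P732821, read 6.72, 6.56, 6.43 and 6.68 in controls and 6.75, 6.53, 6.81 and 6.76 in morphants, with groups that overlapped. Without control 1 the other 3 probes passed, with adjusted p between 0.0171 and 0.0482. Of these, A_15_P204906 also passed in the deposited value table (limma adjusted p = 0.0326).

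By brightest probes, gapdhs minus gapdh was -0.81, -0.75, -0.74 and -0.42 in controls and 0.11, 0.19, 0.03 and 0.36 in morphants. The groups lay apart, and the difference was 0.85 (95% interval 0.58 to 1.13, exact p = 0.0286, the smallest that 4 against 4 allows, and 0.0571 after adjustment over the 8 pairs of genes). All 16 combinations of probes gave a difference above 0, from 0.051 to 1.07. The lowest of them came with a gapdh probe that did not pass.

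**Figure D4:**
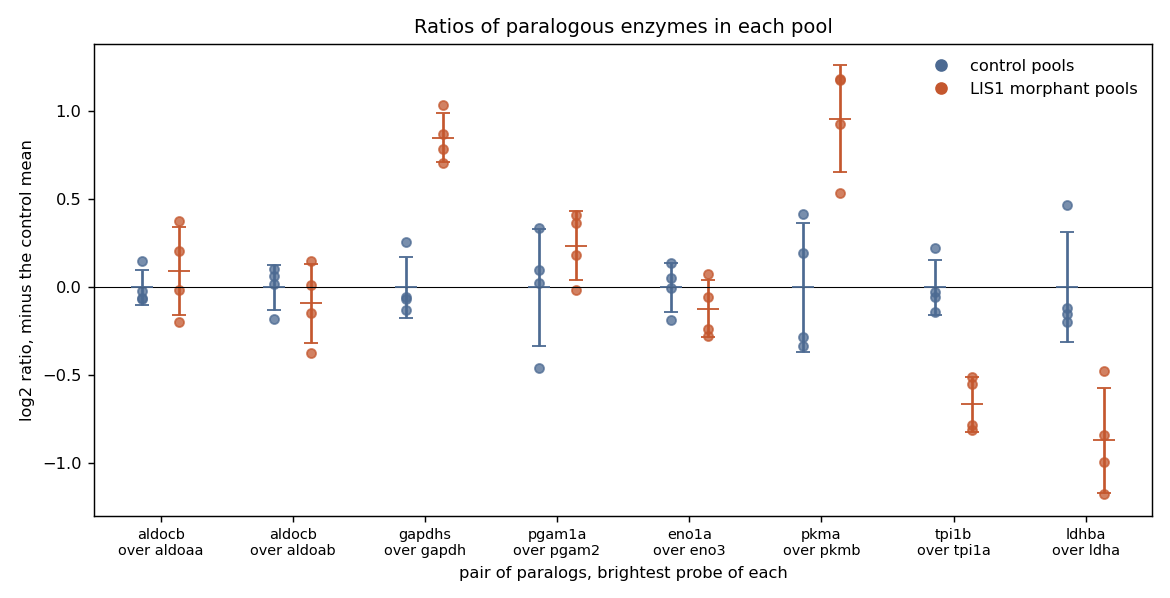
Difference of the log2 levels of 2 genes for the same reaction on each control and LIS1 morphant array, by the brightest probe of each gene, for 8 pairs, drawn with the control mean of each pair set to 0; bars are group means and SDs. The groups lie apart for gapdhs minus gapdh, pkma minus pkmb, tpi1b minus tpi1a and ldhba minus ldha, and overlap for the other 4 pairs.

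Phosphoglycerate kinase (pgk1) makes the first ATP of the pathway. Its probe A_15_P748846 read 4.00, 3.28, 3.52 and 3.28 in controls and 4.36, 4.17, 4.11 and 4.18 in morphants, with control 1 nearest to the morphants and no overlap. The mean rose from 3.52 ± 0.34 to 4.21 ± 0.11 (SD, n = 4 each), a change of 0.69 with a standard error of 0.18, or 1.61-fold (limma adjusted p = 0.0151). The change was 0.63 after normexp background correction and did not pass there (adjusted p = 0.0654).

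The brighter pgk1 probe, A_15_P116144, read 6.08, 5.72, 5.73 and 6.06 in controls and 6.27, 6.12, 6.11 and 6.13 in morphants. All morphants lay above all controls, and the change of 0.26 did not pass (95% interval -0.04 to 0.55, limma adjusted p = 0.148). It passed with quantile normalization (adjusted p = 0.0396) and in the deposited value table (adjusted p = 0.0376).

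Phosphoglycerate mutase (pgam1a) moves the phosphate within phosphoglycerate. Its 3 probes changed by 0.18, 0.46 and 0.52, and none passed (limma adjusted p = 0.383, 0.140 and 0.0935). On A_15_P737676 the controls read 2.94, 2.27, 2.68 and 1.91 and the morphants 3.20, 3.01, 2.86 and 2.82. Control 1 lay among the morphants and the other controls below them. This probe passed with the slide as a block (adjusted p = 0.0462), and it and A_15_P722886 passed without control 1 (adjusted p = 0.0284 and 0.0254).

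The muscle form pgam2 changed by -0.05 by its brightest probe (limma adjusted p = 0.770). pgam1a minus pgam2 differed by 0.24 between the groups (95% interval -0.24 to 0.71, exact p = 0.286), and all 6 combinations of probes were above 0, up to 0.59.

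Enolase makes phosphoenolpyruvate. The 4 probes of eno1a changed by -0.12, 0.01, 0.21 and 0.20, and none passed (limma adjusted p from 0.325 to 0.967). A_15_P741266 passed in 1 of the 8 fits without 1 array (limma adjusted p = 0.0490). The brightest, A_15_P733006, read 7.31, 7.21, 7.11 and 7.23 in controls and 7.19, 7.14, 7.15 and 6.91 in morphants. These groups overlapped, and the 95% interval ran from -0.38 to 0.14. With spike-in scaling its change was 0.62.

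The muscle form eno3 changed by 0.01 by its brightest probe (limma adjusted p = 0.974). eno1a minus eno3 differed by -0.12 (95% interval -0.38 to 0.14, exact p = 0.257), with combinations from -0.70 to 0.60. Of the enolases that are not among the 10 genes, eno1b fell by 0.73 (SE 0.14, limma adjusted p = 0.00363) on 1 of 2 probes. eno4, a divergent enolase that mammalian sperm use, rose on all 3 of its probes by 0.78 to 1.52. Its brightest probe was dim, with a control mean of -3.00, and did not pass after normexp background correction (limma adjusted p = 0.160).

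Pyruvate kinase makes pyruvate and ATP in the last step of the pathway. The pkma probe A_15_P119615 read 2.26, 2.75, 2.86 and 2.47 in controls and 3.57, 3.56, 3.78 and 2.97 in morphants. No pools overlapped, with morphant 4 the lowest of its group. The mean rose from 2.59 ± 0.27 to 3.47 ± 0.35 (SD, n = 4 each), a change of 0.88 with a standard error of 0.21, or 1.85-fold (limma adjusted p = 0.0102). The change was 0.82 after normexp background correction and did not pass there (adjusted p = 0.0599).

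The second called pkma probe, A_15_P697716, read 3.01, 2.08, 2.88 and 1.47 in controls and 2.97, 3.50, 3.76 and 3.64 in morphants. Controls spread the most of all 36 probes, and morphant 1 lay below control 1. The change of 1.11 (SE 0.35, 2.15-fold, limma adjusted p = 0.0332) did not pass with the slide as a block (adjusted p = 0.0508), and it passed in 3 of the 8 fits without 1 array. After normexp background correction it did not pass either (adjusted p = 0.142).

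The other 4 pkma probes gave changes of 0.18, 0.09, 0.20 and -0.42, and none passed (limma adjusted p from 0.0871 to 0.686). The dimmest, A_15_P749616, read -1.98, -1.89, -2.24 and -1.54 in controls and -2.48, -2.33, -2.04 and -2.50 in morphants. 3 of its 4 morphants lay below all controls.

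The paralog pkmb changed by -0.07 by its brightest probe (limma adjusted p = 0.675). pkma minus pkmb was -2.96, -2.48, -2.26 and -3.01 in controls and -1.75, -1.50, -1.50 and -2.14 in morphants, which do not overlap. The difference was 0.96 (95% interval 0.37 to 1.54, exact p = 0.0286, 0.0571 after adjustment), and 10 of 12 combinations of probes were above 0, the lowest at -0.45.

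Lactate dehydrogenase reduces pyruvate to lactate and renews the NAD+ that glyceraldehyde-3-phosphate dehydrogenase uses, and ldha encodes the A subunit, the muscle type in mammals. Its probe A_15_P113715 read 3.05, 3.47, 3.56 and 3.46 in controls and 4.23, 4.21, 4.39 and 3.82 in morphants. Every morphant pool lay above every control. The mean rose from 3.39 ± 0.23 to 4.16 ± 0.24 (SD, n = 4 each), a change of 0.78 with a standard error of 0.17, or 1.71-fold (limma adjusted p = 0.00717).

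The second ldha probe, A_15_P580707, read 0.70, 0.37, 0.64 and 0.50 in controls and 1.16, 0.998, 1.23 and 0.72 in morphants. The groups were again apart, by little between control 1 and morphant 4. It rose by 0.47 (SE 0.15, 1.39-fold, limma adjusted p = 0.0327) and passed in 2 of the 8 fits without 1 array. After normexp background correction, A_15_P113715 gave 0.71 and did not pass (adjusted p = 0.0543).

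The B subunit gene ldhba, the heart type in mammals, changed by -0.09 by its brightest probe (limma adjusted p = 0.582). ldhba minus ldha was 2.09, 1.51, 1.43 and 1.47 in controls and 0.79, 0.45, 0.63 and 1.15 in morphants. The groups did not overlap and differed by -0.87 (95% interval -1.40 to -0.34, exact p = 0.0286, 0.0571 after adjustment). None of the 8 combinations of probes was above 0, and the nearest to 0 was -0.035.

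Of the 8 pairs of genes by their brightest probes, 4 thus lay apart at the smallest p the design allows, and none passed after adjustment. With 4 of 8 pairs at that p, the adjusted p is 0.0571 whatever the size of the differences, so these pairs could not pass. The last of them, tpi1b minus tpi1a, differed by -0.66 (95% interval -0.93 to -0.40, exact p = 0.0286). Its 3 combinations ran to -0.43. Which pairs lay apart depended on the probes: of the combinations of probes, the groups were apart at that p in 2 of 3 for tpi1b minus tpi1a, 4 of 16 for gapdhs minus gapdh, 2 of 8 for ldhba minus ldha and 1 of 12 for pkma minus pkmb. Among the other pairs this held for 6 of 10 for aldocb minus aldoab, 5 of 16 for eno1a minus eno3, 2 of 15 for aldocb minus aldoaa and 0 of 6 for pgam1a minus pgam2.

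The other genes of glycolysis were read by their brightest probes, on which 38.0% of all genes passed, 16.3% upward and 21.7% downward. Of 26 genes on the list, 20 were measured: 5 rose and 2 fell, with a median change of 0.09 beside -0.06 over all genes. The risers were tpi1a and eno4, given above, gpib, eno2 and ldhbb. After normexp background correction 2 rose and 2 fell, where 5.89% of all probes rose and 4.87% fell. There eno4, eno2 and ldhbb did not pass (limma adjusted p = 0.160, 0.139 and 0.126). gpib, a glucose-6-phosphate isomerase, rose by 0.79 (limma adjusted p = 0.00256), and ldhbb, a B-type lactate dehydrogenase, by 0.58 (limma adjusted p = 0.0192) on 1 of its 3 probes.

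The neuronal enolase gene eno2 rose by 0.50 (limma adjusted p = 0.0483), a call that was lost with the slide as a block (adjusted p = 0.0915). The pyruvate kinase gene pklr, the liver and red cell type in mammals, fell by 1.07 on its brightest probe (SE 0.24, limma adjusted p = 0.00810), and 2 of its 6 probes fell. eno1b, given above, was the other gene that fell.

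**Figure D5:**
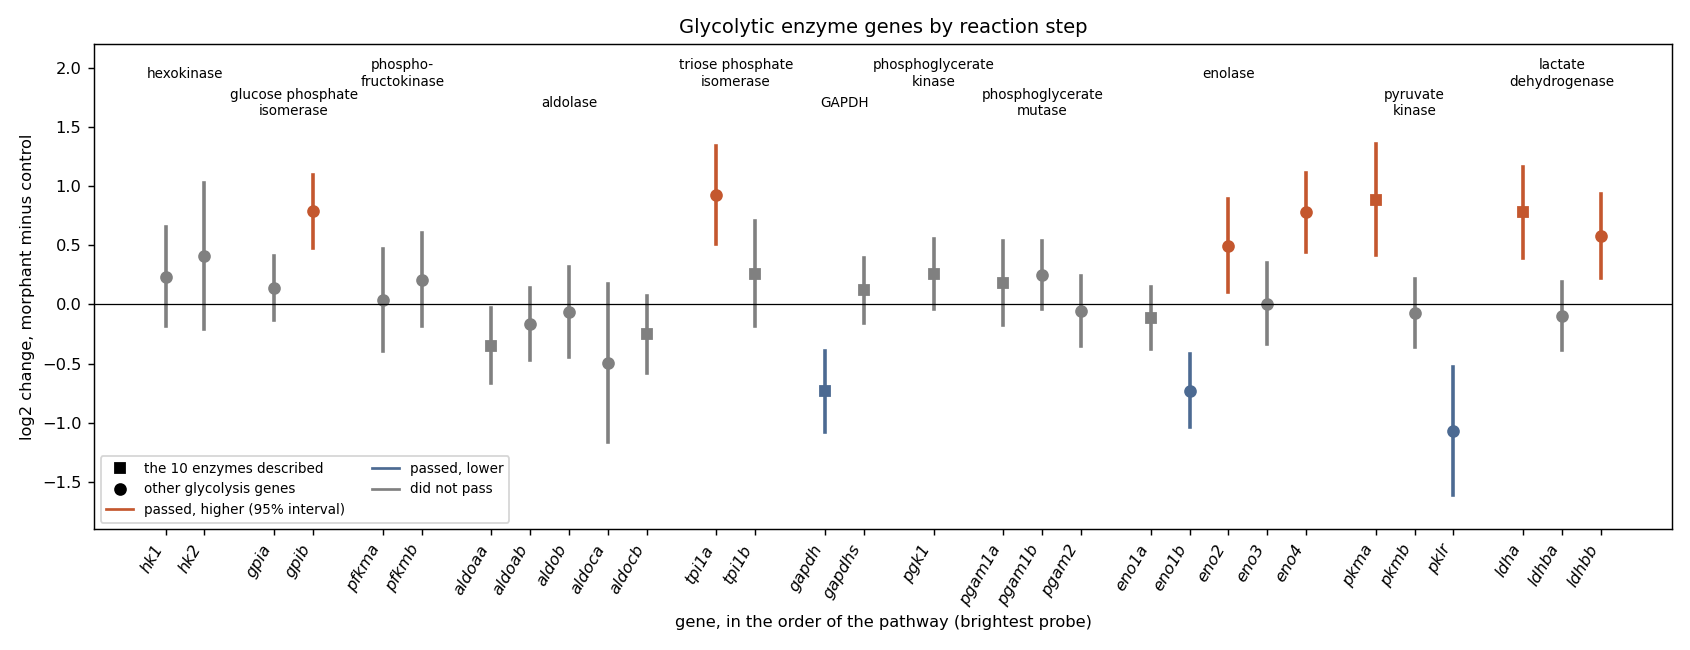
Log2 change (LIS1 morphant minus control) of the brightest probe of each measured glycolysis gene, in the order of the pathway's steps, with bars for the 95% interval. Squares are the 10 genes described and circles the other glycolysis genes; red probes rose, blue probes fell and grey probes did not pass. Probes that rose and probes that fell are found at neighbouring steps, with tpi1a at 0.93, pkma at 0.88 and ldha at 0.78 above 0 and pklr at -1.07, gapdh and eno1b at -0.73 below it.

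Around the pathway, counts were small. They stand beside 16.3% of all genes that rose and 21.7% that fell by their brightest probes. Of 9 transporters of glucose and lactate, 3 rose and none fell by limma (1 at an unadjusted p under 0.05). After normexp background correction 1 rose and 0 fell, where 5.89% of all probes rose and 4.87% fell. bsg, which carries monocarboxylate transporters to the cell surface, rose by 1.19 (limma adjusted p = 0.00193) on both probes. The glucose transporter gene slc2a2 rose by 0.79 (limma adjusted p = 0.0284) by its brightest probe, while the other changes among its 4 probes reached down to -1.91 and none of them passed. The slc2a2 rise did not pass after normexp background correction (limma adjusted p = 0.112). Of 7 regulators, tigarb, a homolog of a mammalian fructose bisphosphatase that restrains glycolysis, rose by 1.55 (limma adjusted p = 0.000359), and no other member passed.

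Where pyruvate enters the mitochondrion, 2 of 13 genes rose and 4 fell, beside 16.3% and 21.7% of all genes. After normexp background correction 1 rose and 2 fell, where 5.89% of all probes rose and 4.87% fell. pdk4, a kinase that switches off pyruvate dehydrogenase, read -4.00, -2.40, -2.39 and -3.35 in controls and -0.37, -0.12, 0.20 and -0.30 in morphants. It rose by 2.89 (SE 0.35, 7.40-fold, limma adjusted p = 0.000517), without overlap. The related kinase pdk2b fell by 1.67 (limma adjusted p = 0.00193), the pyruvate dehydrogenase subunit gene pdha1b fell by 1.54 (limma adjusted p = 0.000151), and dlat, another subunit of the complex, rose by 0.50 (limma adjusted p = 0.0219). The dlat rise did not pass after normexp background correction (limma adjusted p = 0.0951).

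In the pentose phosphate pathway, which branches off at glucose-6-phosphate, 2 of 5 measured genes rose and none fell by limma, nor at an unadjusted p under 0.05. Of all genes by their brightest probes, 16.3% rose and 21.7% fell. The dehydrogenase pgd rose by 1.04 (limma adjusted p = 0.00177) and did so on all 4 of its probes. The transketolase gene tktb rose by 0.54 (limma adjusted p = 0.0324) on 1 of 4 probes. The tktb rise did not pass after normexp background correction (limma adjusted p = 0.144). Of 14 genes of gluconeogenesis and glycogen, 3 rose and 4 fell, beside the same shares of all genes. After normexp background correction 3 rose and 0 fell, where 5.89% of all probes rose and 4.87% fell. The glycogen synthase gene gys1 rose by 0.82 (limma adjusted p = 0.00792). The paralogs ugp2b and ugp2a, which make UDP-glucose, went opposite ways, with changes of 0.82 and -1.60 (limma adjusted p = 0.00336 and 0.00105). ugp2b rose on 1 of its 2 probes, and the other changed by 0.07. ugp2a did not pass after normexp background correction (adjusted p = 0.0723). The pyruvate carboxylase gene pcxb fell by 0.95 (limma adjusted p = 0.0374), and with the slide as a block it did not pass (adjusted p = 0.0697). Nor did pcxb pass after normexp background correction (limma adjusted p = 0.290).

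Hypoxia raises several glycolytic genes in vertebrates through HIF, so genes of the hypoxia response, HIF targets and members of the HIF pathway itself, were listed as well. Of the 9 well above background on all 8 arrays, 4 rose and 1 fell, with a median change of 0.55. By their brightest probes, 16.3% of all genes rose and 21.7% fell. With the slide as a block 6 of the 9 rose, where 19.9% of all probes did. The pathway member vhl was among the 4 risers. hif1al passed by its brightest probe with the block and not without it, while another of its 4 probes fell. vegfaa, igfbp1a and ankrd37 did not pass in the fit without the block (changes of -0.12, 0.24 and 0.76). With the block ankrd37 passed (limma adjusted p = 0.00823), while vegfaa and igfbp1a did not. The prolyl hydroxylase gene egln3 rose by 2.29 (SE 0.15, 4.88-fold, limma adjusted p = 2.54e-05) and did so on both probes, with controls from -2.31 to -1.75 and morphants from 0.03 to 0.38. The erythropoietin gene epoa, not counted here, was not well above background on any control array and entered the fit through the morphant arrays alone. Its morphant level was higher by at least 1.31-fold, with the control value set at the lowest signal well above background where its own was lower (limma adjusted p = 0.00238, and 0.825 after normexp background correction). bnip3, a mitophagy receptor gene, fell by 0.54 (limma adjusted p = 0.0193). After normexp background correction, 2 of the 9 rose and none fell, where 5.89% of all probes rose and 4.87% fell. The part of a hypoxia response in the enzyme values was not tested.

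Blood, liver and heart also express these enzymes. Of 8 erythroid markers 1 rose by its brightest probe, with a median change of 1.19. Across all genes by their brightest probes, 16.3% rose and 21.7% fell. With the slide as a block 5 of the 8 rose, where 19.9% of all probes did. Their summed level was 154 to 245 in controls and 144 to 590 in morphants (exact p = 0.143), with morphant 4 the lowest of all arrays. Of 8 liver markers 4 rose and none fell by limma, beside the same 16.3% and 21.7% of all genes. At an unadjusted p under 0.05, 1 fell, and 1 with the slide as a block, where 24.2% of all probes did. The sums of the liver markers overlapped (262 to 511 and 333 to 437, exact p = 0.886). Of 5 heart markers 1 rose, beside 16.3% of all genes (sums of 7.49 to 9.06 and 7.14 to 10.1, exact p = 0.286). All these markers were well above background on all 8 arrays, and their part in the enzyme values was not tested.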

How the data were processed

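Per the labels, Cy3-labelled RNA of each of the 8 pools was put on its own 1-colour Agilent array. Their labelling protocol names mouse arrays, while the file headers give a zebrafish design, number 026437. Per the file headers, scanner files hold intensity values of Feature Extraction 10.7.3.1, corrected for background and with no normalization between arrays. Values in the deposited table are on a log2 scale, and how the authors made them is not given in the sources used here. Numbered by their sample titles, not by position, columns 2, 3 and 4 of each group in that table matched scanner files 4, 2 and 3 (Spearman above 0.999). These files are of the same group, which leaves groups and pairs as they are. Column medians lay between 8.127 and 8.131. Pool numbers in the text are those of the scanner files.

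Levels are log2 processed signals minus the 75th percentile of their array. Control spots and spots with outlier marks were left out and spots of a probe averaged. Probes well above background on all 4 arrays of a group were fitted (36703, of which 61 lack a value on some array, none of them a glycolytic enzyme probe) with limma 3.58.1 in R 4.3.3 (lmFit, eBayes, Benjamini-Hochberg over all probes). Accessions of 25069 probes matched 12858 symbols in a RefSeq table of assembly GRCz12tu, used for names only, and all 10 genes matched. Exact permutation tests (scipy 1.17.1) over single values allow no p below 0.0286 with 4 against 4. The scripts were tested on simulated data. The number of arrays limits the precision.

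Control and morphant arrays of a number shared a slide and scan, per the file headers, and their deviations from the group means correlated at 0.444, 0.140, 0.305 and 0.259. Arrays of different numbers reached 0.296. Numbers were taken as pairs from the shared slides and these values. The fit in the text and the exact tests have no block. A fit with it is given where it changed the call of a gene named here or a count by over 1.5 times. For the dimmer probes of marker genes it is not given. Alternatives were the background correction, the scaling, the filter, outlier spots, the deposited table, the brightest probe per gene, the block and leaving out each array. The text gives the change of every probe of the 10 genes, though not each probe's name. It names the partner genes, every other glycolysis gene that passed, and per further pathway list the 2 largest rises and falls that passed. The tissue marker lists are given by counts and sums over the brightest probe of each gene, and their largest changes are not named. Genes, lists and tests were chosen with earlier results of these data known. No set test was run.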

Additional observations from a re-analysis of the deposited data

Results flagged for a closer look

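In 7 of 88 groups of 4 arrays, 1 value lay far from the other 3 by Dixon's 95% criterion, while chance gives about 1 group in 20. Control 1 was highest on the gapdhs probe A_15_P204906 at 4.76 (others 4.27 to 4.32), on the pkma probe A_15_P733066 at -0.25 (others -0.95 to -0.91) and in ldhba minus ldha at 2.09 (others 1.43 to 1.51). Morphant 4 was lowest on the tpi1b probes A_15_P193701 at 3.71 (others 4.48 to 4.54) and A_15_P721086 at 3.57 (others 3.77 to 3.80). Morphant 3 was highest on the aldoaa probe A_15_P214516 at 5.51 (others 5.14 to 5.17), and morphant 1 on the pgk1 probe A_15_P116144 at 6.27 (others 6.11 to 6.13).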

How the results depend on the processing

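The counts of 5 enzyme probes higher and 6 lower became 6 and 6 with the replicate block, where 44.1% of all probes passed, and 0 and 5 with normexp background correction in limma (6 and 7 at an unadjusted p under 0.05), where 10.8% of all probes passed (2161 higher, 1787 lower). Quantile normalization and the array median each gave 6 higher and 5 lower, where 38.5% and 38.8% of all probes passed. The deposited table gave 8 higher and 5 lower, where 38.0% of all probes passed. Spike-in scaling gave 27 higher and 0 lower (27 and 0 unadjusted), with 20556 of all probes higher and 1588 lower. Leaving out 1 array gave 3 to 12 higher (the most without control 1) and 3 to 7 lower (the fewest without control 2). With 1 probe per gene, 3846 genes were higher and 5115 lower. Of all probes called, 54.7% were lower, beside 45.3% with normexp, 49.0% with quantile, 47.1% with median and 7.17% with spike-in scaling.

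With spike-in scaling all 10 changes below 0 turned, those of gapdh A_15_P114515 (0.0026), aldoaa A_15_P214516 (0.37), A_15_P745411 (0.39), eno1a A_15_P733006 (0.62), pkma A_15_P749616 (0.31) and aldocb A_15_P100837 (0.023), A_15_P171261 (0.010), A_15_P485790 (0.16), A_15_P728291 (0.23) and A_15_P738701 (0.48). Spike-in scaling shifts the changes of all enzyme probes by the same amount, and the median of all probes went from -0.03 to 0.70. Every change below 0 was smaller in size than this shift. What lies behind the shift was not tested. With other probes, the gene pairs reached -0.93 for aldocb minus aldoaa, -0.66 for aldocb minus aldoab, 0.051 and 1.07 for gapdhs minus gapdh, 0.59 for pgam1a minus pgam2, -0.70 and 0.60 for eno1a minus eno3, -0.45 for pkma minus pkmb, -0.43 for tpi1b minus tpi1a and -0.035 for ldhba minus ldha. For the gene pairs, the exact sign-flip test over 4 slides allows no p below 0.125 and 3 arrays against 4 none below 0.0571, so these exact tests could not pass.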
